A study of Zostera marina with 23 samples.

Results

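Among the transcripts of the developing female flower of eelgrass, Zostera marina, 100 genes stood high at the early and low at the late time point and form the subject of the results given here. They were chosen by their own values in the 6 female libraries, from 22733 gene identifiers in all. After 92 ZosmaC and 104 ZosmaM identifiers were set aside, 22537 remained. Of these, 2565 genes, or 11.4%, had every early value above every late value, 2163 of them also had an early median of at least 6 on the log2(value + 1) scale, and 172 of those fell by at least 2 log2 units between the medians. The 100 with the largest difference were taken and 72 were not. The last gene inside this limit differed by 2.59 log2 units, from 10.71 to 8.12, and the first gene outside it also by 2.59, from 7.03 to 4.44. The levels of early and late female flower were therefore used in the choice and are given as a description, with no test.

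Eelgrass is a flowering plant that lives submerged in the sea. Its male and female flowers sit together on one spadix, and the stigmas of a spadix usually come out and receive water-borne pollen before its own anthers open. A pistil in development passes through growth of its wall and stigma, formation of the ovule and, after pollination, the start of seed growth. The labels do not say which of these steps the early and the late time point cover.

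All groups came from shoots collected on one shore of the Kiel Bight in winter, planted into seawater tanks, warmed and given longer days until they flowered. The 23 libraries are messenger RNA of leaf (n = 6), early female flower (n = 3), male flower (n = 7), late female flower (n = 3) and root (n = 4), with no further treatment or genotype named. One of the 3 late libraries, replicate 3, has a title that calls it early, while its tissue label and source name call it late, and it was counted as late. The labels do not say that replicates came from separate plants, nor how many plants a library held, so the p-values measure the spread between these libraries, which may be partly technical. Values are scaled fragments, a count of sequenced fragments per gene multiplied by one factor per library. The files pair identifiers with no gene names or products, so genes are named by identifier alone, their roles are not described, and the tissue labels were not set against marker genes. In whole tissue, fewer cells of a type and less RNA per cell cannot be told apart.

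The libraries held 5696800 to 13679081 fragments each. Some lay apart from their own group in the genes described here. In leaf replicates 0, 2, 3 and 5 the median of the 100 genes was 1.27 to 1.92 on the log2(value + 1) scale, against 7.19 in leaf replicate 1 and 5.10 in leaf replicate 4. In root the medians were 7.57, 6.98, 2.51 and 4.67 for replicates 0, 1, 2 and 3. The 7 male libraries ranged from 4.25 to 5.84. The genes with an early median of at least 6, 11317 in number, had medians between 7.94 and 8.33 in all 23 libraries.

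**Figure D1:**
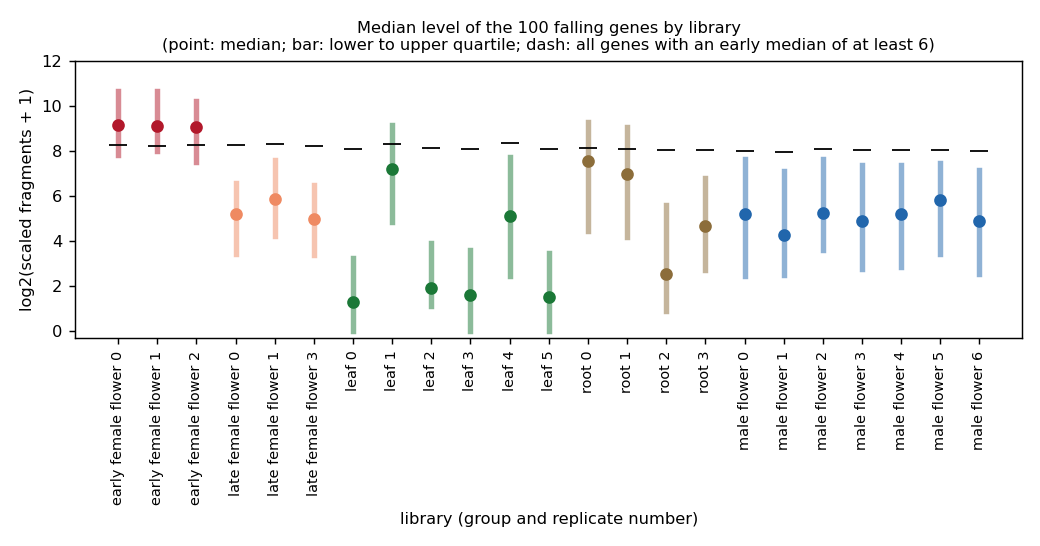
Median level of the 100 genes in each library as log2(scaled fragments + 1), with the lower to upper quartile as a bar, and as a dash the median of all 11317 genes with an early median of at least 6. The early female libraries sit at 9.05 to 9.14 and the late ones at 4.96 to 5.86, leaf replicates 1 and 4 stand above the other 4 leaf libraries, and root replicate 2 is the lowest root.

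Between the stages the fall had a median of 3.59 log2 units and ranged from 2.59 to 8.19. It was at least 3 units in 77 genes, at least 4 in 38, at least 5 in 17 and at least 6 in 7. The early medians ran from 6.08 to 15.55 and the late medians from 0 to 11.04. In 86 of the genes the lowest early value was at least 2-fold above the highest late value, although the narrowest gap was only 0.0085 log2 units. The levels also varied inside a stage, with a median range of 1.34 log2 units over the 3 early libraries and 1.14 over the 3 late ones. Early replicate 2 was the lowest early library in 57 of the 100 genes, and late replicate 1 was the highest late library in 73. No gene was at 0 in all 3 late libraries, and 3 genes were at 0 in at least 1 of them.

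The steepest fall was that of Zosma22g01000. It stood at 867, 1203 and 929 scaled fragments in early female replicates 0, 1 and 2, and at 0, 2.18 and 2.34 in late replicates 0, 1 and 3, where 0, 3 and 4 fragments had been counted. Outside the female flower this gene was close to 0 everywhere: 5 of the 6 leaf libraries were at 0, the roots reached 0.814 and the male libraries ran from 0 over a median of 4.90 to 13.6. Its signal was thus held by the 3 early female libraries, with no overlap with any other library.

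Zosma5g00860 fell nearly as far, by 7.93 log2 units, yet was abundant in other tissues. Early female replicates 0, 1 and 2 held 2092, 1102 and 348 scaled fragments, and late replicates 0, 1 and 3 held 3.33, 16.7 and 3.51. Male flower ranged from 448 to 1745 with a median of 906, which lies inside the range of the early female libraries. Roots 0, 1, 2 and 3 stood at 886, 808, 15.4 and 474. In leaf the gene was at 1168 in replicate 1 and 115 in replicate 4, and between 0 and 5.44 in the other 4 libraries.

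A small number of the genes carried much of the signal. Per length, in the deposited FPKM, which divide by gene length and library size, the median early level ran from 3.89 to 11160 with a middle value of 54.1 FPKM. Zosma38g00400 was the highest, at 8971 to 14949 FPKM in the early libraries and 194 to 548 FPKM in the late ones, and made up 50.4% of the summed early median FPKM of the 100 genes. Zosma2g01810 came second with an early median of 1744 FPKM and a late median of 77.1 FPKM. These 2 genes were picked out after their values had been seen.

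In scaled fragments Zosma38g00400 stood at 44020, 57018 and 34149 in early replicates 0, 1 and 2, and at 728, 1948 and 904 in late replicates 0, 1 and 3. Leaf held 2.32 to 13.0, with a median of 3.50, and root 25.9, 5.23, 3.42 and 4.89 in replicates 0 to 3. Male flower was uneven, from 0 in replicate 5 to 422 in replicate 2 with a median of 69.5. So the late female libraries, although far below the early ones, still exceeded every library of the other 3 tissues.

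Zosma2g01810 had a different pattern. It held 48115, 53963 and 15498 scaled fragments in early replicates 0, 1 and 2 and 1672, 2175 and 2098 in late replicates 0, 1 and 3. Roots stood at 2053, 2569, 1512 and 3951, and male flower at 894 to 1785 with a median of 1385. The late female level therefore lay inside the range of root and overlapped the top of the male range, whereas leaf ranged from 12.0 to 1246 around a median of 28.2, with its high values in replicates 1 and 4.

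Together the 100 genes took 2.74%, 3.22% and 1.97% of all fragments in early female replicates 0, 1 and 2, against 0.180%, 0.288% and 0.160% in late replicates 0, 1 and 3. Without Zosma38g00400 and Zosma2g01810 the shares were 1.28% to 1.67% in the early and 0.115% to 0.235% in the late libraries. Such shares do not depend on the factor of the library. Male flower gave 0.361% to 0.830%, root 0.161% to 0.673%, and leaf 0.0315% to 0.0484% in 4 libraries, with 0.754% in replicate 1 and 0.324% in replicate 4.

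**Figure D2:**
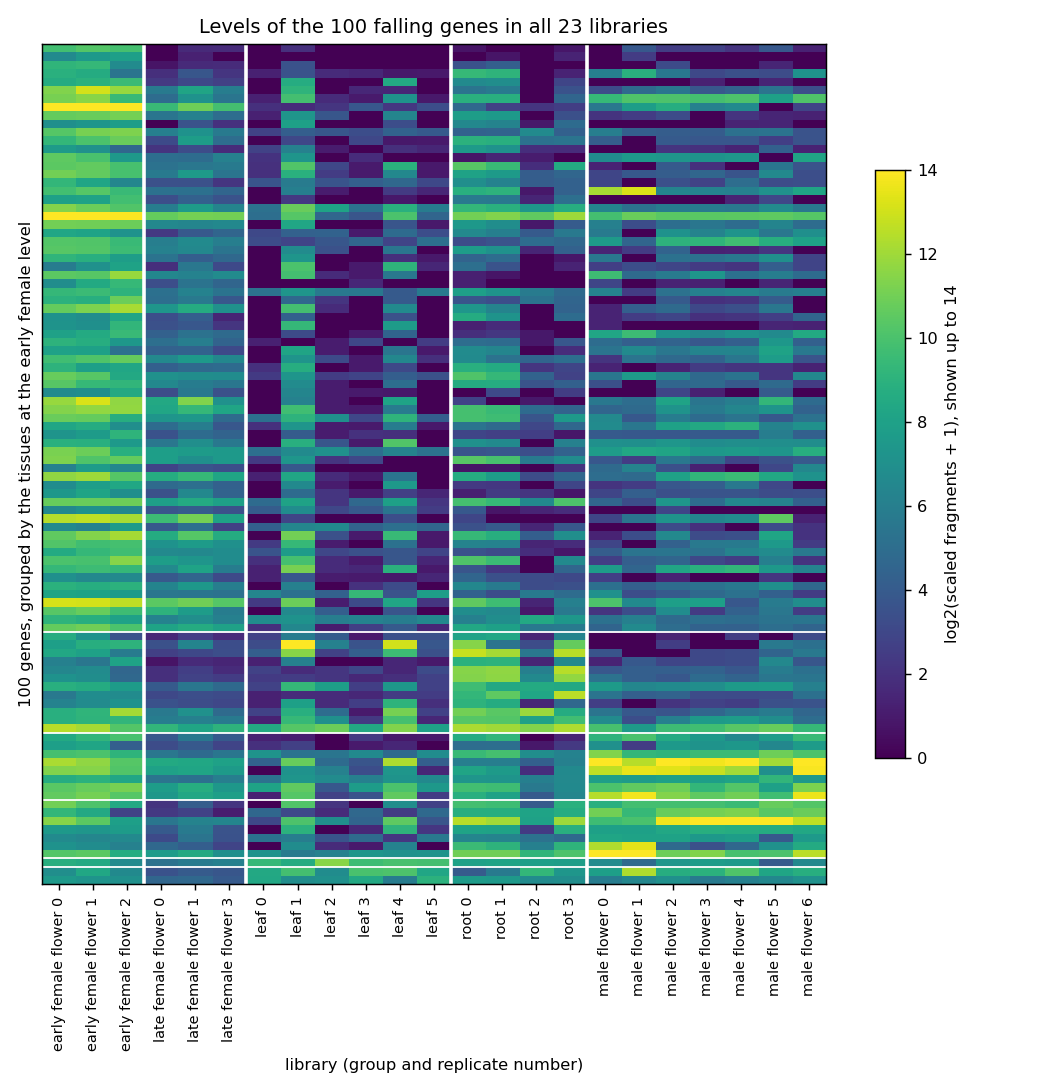
Level of each of the 100 genes (rows) in each of the 23 libraries (columns) as log2(scaled fragments + 1), coloured up to 14. White lines part the rows by the tissues in which a gene reached the early female level, with the 70 genes that reached it in none of leaf, root and male flower at the top. The 3 late female columns are darker than the 3 early ones in all blocks, and leaf replicates 1 and 4 are brighter than the other leaf columns in many rows.

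Since the choice used all 6 female libraries, it was repeated with each of them left out in turn, and the left-out library was then read in the 100 genes chosen without it. Late replicate 3, the library of conflicting labels, was under every early value in 99 of the 100 genes, against 33.3% of the genes with an early median of at least 6 in the libraries used, and was nearer to the late than to the early median in 100. Its median in these genes was 4.88 log2 units, against 9.03 in the early and 5.39 in the late libraries used. Late replicates 0 and 1 were under every early value in 96 genes each, where 33.6% and 33.7% of those abundant genes were.

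Of the early libraries, replicate 2 held to its stage in the fewest genes. Left out, early replicates 0, 1 and 2 lay above every late value used in 94, 95 and 88 of the 100 genes, against 32.6%, 31.7% and 33.4% of the abundant genes. They were nearer to the early than to the late median in 91, 94 and 74 of them. The fall in a left-out library had a median of 3.40, 3.79 and 3.05 log2 units for early replicates 0, 1 and 2, and of 3.68, 3.19 and 3.87 for late replicates 0, 1 and 3. The abundant genes were not chosen for a fall, so a count above their share was largely built into the choice, for the early and the late libraries alike. These are single libraries, and no test was made.

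**Figure D3:**
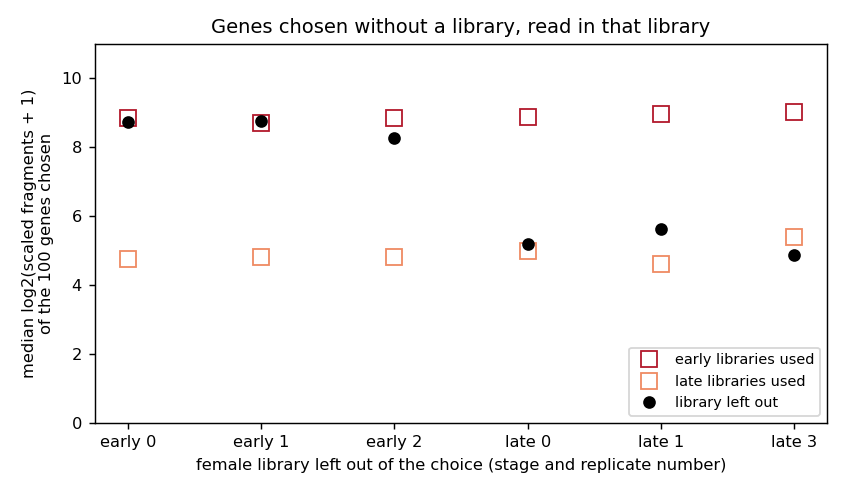
For each female library left out of the choice (horizontal axis), the median log2(scaled fragments + 1) of the 100 genes chosen without it, in the early libraries used (red open squares), the late libraries used (orange open squares) and the left-out library (black points). Each left-out library lies nearer to its own stage, and late replicate 3, titled early, sits at 4.88.

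The lists so chosen shared 77 to 88 genes with the 100 described here, and 86 were shared when late replicate 3 was left out. With late replicate 3 counted as early, as its title says, only 18 genes met the rule, and 12 of them were among the 100.

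Each gene was then placed by its level in leaf, root and male flower, tissues whose values did not enter the choice. A tissue was said to be at the early level when its median was no more than 1 log2 unit below the early female median, and at the late level when it was no more than 1 unit above the late female median. Leaf was at the late level in 90 genes and at the early level in 3. Root was at the late level in 59 and at the early level in 22, and male flower at the late level in 67 and at the early level in 17. Of the 11317 abundant genes, 79.1% were at the late level in leaf, 85.6% were so in root and 77.2% in male flower, while 66.5%, 74.3% and 64.2% were at the early level, since a gene whose stages differ by less than 2 units can meet both limits. The late-level counts of root and male flower thus lay below these shares. In 46 genes all 3 tissues were at the late level, and in 70 none was at the early level.

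The early female flower had the highest median of the 5 groups for 80 genes, root for 9, male flower for 8 and leaf for 3. Since high early values chose the genes, the count of 80 was partly built into the choice. The share among all abundant genes was not counted. Of the 22 genes at the early level in root, 12 were so in root alone, 9 were so in male flower too, and 3 in leaf too, so that 2 were at that level in all 3 tissues. Of the 17 in male flower, 8 were so in male flower alone. None was at the early level in leaf alone. In early female flower the 12 root genes had a median level of 19.2 FPKM, against 74.6 FPKM for the 8 male genes. The 46 genes at the late level in all 3 tissues had 65.6 FPKM. That level is set by the late female median of each gene and need not be low. These medians were not tested against each other.

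By group medians, leaf was the tissue farthest from early female flower. That does not hold for each leaf library: the median of the 100 genes was 7.19 in leaf replicate 1, against 4.25 to 5.84 in the male libraries. The leaf median lay 4-fold or more below the early median in 94 of the 100 genes, against 22.9% of the 11317 abundant genes. The same held for root in 70 genes, against 13.0%, and for male flower in 72, against 19.6%. Because high early values chose the genes, these counts describe them and test nothing. The leaf median was below the late female median in 77 genes, the male median in 57 and the root median in 45. The share of the abundant genes below that median was not counted. The 100 genes with the largest rise by the mirrored rule can be set beside the late-level counts given earlier, not the counts just given. Of the falling genes, leaf had 90 at the late level, male flower 67 and root 59. Of the rising genes, leaf was within 1 unit of the low (early) level or below it in 45, male flower in 57 and root in 32.

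The placing of root rested partly on single libraries. That of leaf moved little: with any single leaf library left out, 3 genes were at the early level and 87 to 91 at the late level. In leaf only replicates 1 and 4 had a high median of these genes, so leaving out any 1 library could hardly move its placing. Without root replicate 2, root was at the early level in 32 genes and at the late level in 46, and without root replicate 3 in 30 and 46. Without leaf replicates 1 and 4, left out together after the data had been seen, leaf was at the late level in 92 and at the early level in 4. Leaf replicate 1 was the highest leaf library in 64 of the 100 genes, against 30.9% of the 17103 genes outside ZosmaC and ZosmaM that entered the tests between tissues. Root replicate 2 was the lowest root in 69, against 37.9%, and root replicate 0 the highest in 59, against 31.9%. The reason for these differences between libraries of a tissue was not tested.

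Taken library by library, 36 of the 100 genes were within 1 unit of the early female median or above it in leaf replicate 1 and 20 in leaf replicate 4, and the other leaf libraries had 3 to 5 of them. The lists of the 2 leaf libraries shared 18 genes, 50% of those in replicate 1 and 90% of those in replicate 4. Root replicates 0, 1, 2 and 3 had 37, 30, 12 and 20 such genes, and all 30 of replicate 1 were among the 37 of replicate 0. Leaf replicate 1 and root replicate 0 shared 20 genes, 55.6% and 54.1% of their lists. Male flower was steadier, with 16 to 20 such genes in each library. For single libraries the share of all abundant genes within this limit was not counted, nor were overlaps of such lists. By tissue median that share was 66.5% for leaf, 74.3% for root and 64.2% for male flower. Those shares are of tissue medians, in genes not chosen for a fall, so the counts of single libraries are not read as high or low. The overlaps have nothing to be set against.

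Leaf, root and male flower were next compared with each other, in a fit that held none of the female libraries. Of the 100 genes, 98 reached 10 scaled fragments in 2 or more of the 17 libraries and were tested among 17152 genes. Of these 98, 6 reached that level through root alone, 8 through male flower alone and 2 through leaf alone, so that a difference was built into their passing. A gene was called at an adjusted p under 0.05 (limma, Benjamini-Hochberg over all genes tested) and a change of at least 2-fold. In the 3 comparisons 31 of the 98 were called in none, as were 29.3% of all genes tested.

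Male flower exceeded leaf in 38 of the 98 tested genes and lay below it in 6, where 31.0% and 24.2% of all genes tested were called. All 8 genes that passed through male flower alone are among the 38. Without genes that reached 10 scaled fragments in 2 libraries of 1 tissue alone, left out after the data had been seen, the counts were 30 and 5 of 82, against 28.4% and 26.3% of 14854 genes. The median log2 fold change of the 98 was 1.64, against 0.19 for all genes. The median standard error was 1.13 log2 units in the 98 and 0.480 in all genes, so these genes were measured less precisely than most. The split was 29 higher and 9 lower with libraries scaled to equal totals, where the median of all genes was -0.41 and that of the 98 was 0.96, and 31 and 12 under quantile normalization. With leaf replicates 1 and 4, root replicate 2 and male replicate 5 left out together it was 63 and 6, and with estimated library weights 68 and 6. The median of the 98 was 2.56 and 2.67 under these settings, and 0.67 in FPKM, 0.66 with a pseudocount of 10 and 0.92 under quantile normalization. For the counts under other settings the share of all genes called is not given here, so they are not read as particular to these genes.

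Of the called genes whose groups did not overlap and whose higher group averaged at least 100 scaled fragments, Zosma161g00020 had the largest excess of male flower over leaf. Early female replicates 0, 1 and 2 held 361, 588 and 968 scaled fragments, and late replicates 0, 1 and 3 held 13.3, 47.9 and 14.6. Male flower stood at 88.2 to 1021 with a median of 383, and leaf at 0 to 3.99 with a median of 1.03. In root the gene was divided, at 391, 599, 0 and 1.63 in replicates 0 to 3. The log2 fold change of male flower against leaf was 7.30 (SE 1.24, adjusted p = 6.93e-05, limma), and lay between 4.31 and 7.76 over 29 alternatives, all of which called it.

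Zosma44g00190 followed, and shows how narrow the fall can be. Its early female values were 619, 344 and 5.85 in replicates 0, 1 and 2 and its late values 4.0, 5.81 and 1.17 in replicates 0, 1 and 3, so early replicate 2 lay just above late replicate 1. Male flower held 664 to 2449 with a median of 1803, the 4 roots 431, 437, 278 and 410, and leaf 2.26 to 26.3 with a median of 15.8. Male flower exceeded leaf by 7.10 log2 units (SE 0.481, adjusted p = 1.68e-09, limma).

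Zosma15g00820 was one of the 3 genes with their highest median in leaf, and had the highest leaf median of the 100. Leaf ranged from 396 to 2901 with a median of 857 scaled fragments, male flower from 15.3 to 211 with a median of 107, and root stood at 257, 277, 234 and 223. In female flower it fell from 441, 373 and 103 in early replicates 0, 1 and 2 to 37.3, 55.9 and 66.8 in late replicates 0, 1 and 3. Leaf lay above both other tissues without overlap. The log2 fold change was -3.42 for male flower against leaf (SE 0.570, adjusted p = 5.69e-05, limma) and -1.86 for root against leaf (SE 0.661, adjusted p = 0.0450, limma). The second call was lost under 14 of 29 alternatives, among them those without any one root library or any one leaf library other than replicate 1, with adjusted p from 2.04e-05 to 0.0995 over all 29.

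**Figure D4:**
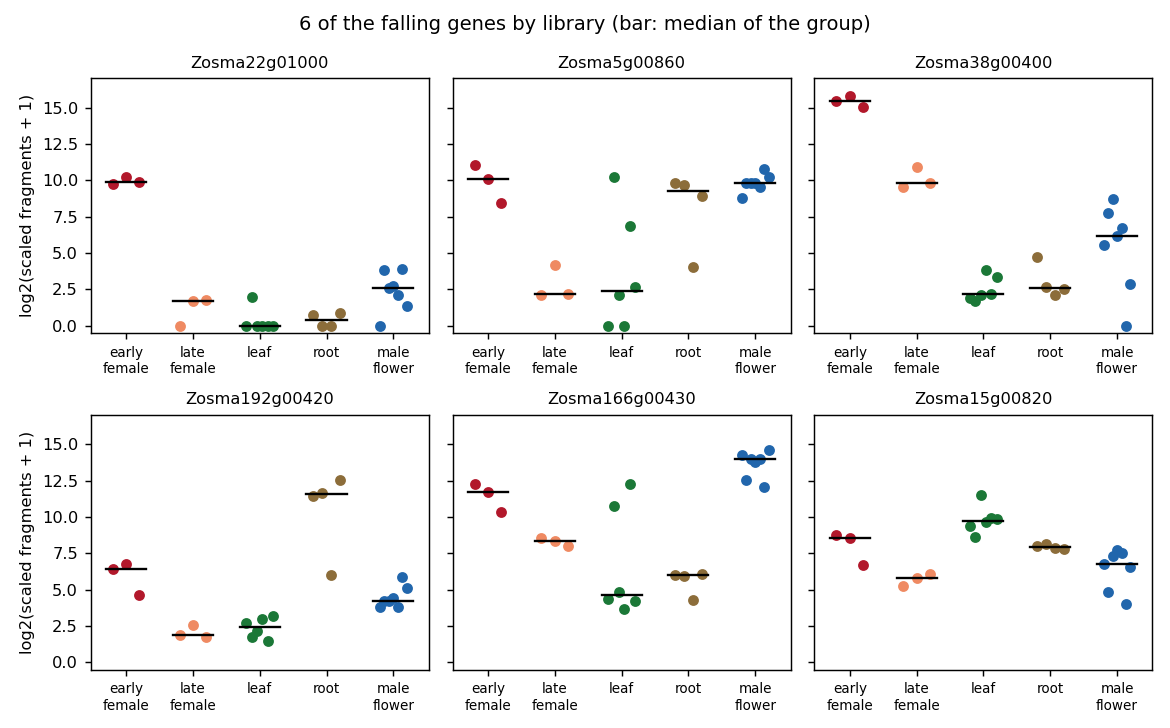
Values of 6 of the 100 genes as log2(scaled fragments + 1) in each library (points) of the 5 groups, with the median of each group as a bar. All fall from early to late female flower, and they differ in the tissue where they are highest, which is early female flower for the 3 in the upper row, root for Zosma192g00420, male flower for Zosma166g00430 and leaf for Zosma15g00820.

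Root against leaf gave fewer calls. Root exceeded leaf in 22 of the 98 genes and lay below it in 2, where 15.0% and 10.5% of all genes were called, and the median log2 fold change was 1.95, against 0.18 for all genes. Without genes of 1 tissue alone the counts were 20 and 2 of 82, against 13.4% and 11.2%. The median was 1.14 without root replicate 0, the lowest with any 1 library left out, and 2.81 without root replicate 2, the highest. It was 1.04 in FPKM, 1.07 with a pseudocount of 10, 5.02 with estimated weights and 4.67 without the 4 libraries that lay apart. Single libraries also carried much of the count: without leaf replicate 1 it was 39 in all, without root replicate 2 it was 36, and without root replicate 0 or 1 it was 14 or 13. With the 4 libraries that lay apart left out together it was 65 higher and 3 lower, with estimated weights 78 and 5, and with root and leaf fitted alone 13 and 2. Under quantile normalization it was 19 and 5, with the median of all genes at 0.015. With equal totals the split was 24 and 1, with the median of all genes at 0.45. Here too the share of all genes called under each other setting is not given, so a changed count may not be particular to these genes.

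By the same measure Zosma38g00860 had the largest excess of root over leaf. Root held 613, 1471, 309 and 6109 scaled fragments in replicates 0 to 3, leaf 1.42 to 4.53 with a median of 2.29, and male flower 8.16 to 41.2 with a median of 18.1. In female flower it went from 49.7, 113 and 107 in the early to 7.34, 9.44 and 8.20 in the late libraries, so every root library lay above every early female one. The log2 fold change of root against leaf was 8.29 (SE 0.704, adjusted p = 1.81e-07, limma), and that of male flower against root was -6.02 (SE 0.684, adjusted p = 1.40e-06, limma). Both were called under all 29 alternatives, the first at 5.44 to 9.03.

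Zosma192g00430 and Zosma192g00420, whose position numbers differ by 10, had nearly the same pattern. In root Zosma192g00430 stood at 2744, 3176, 100.0 and 3415 scaled fragments and Zosma192g00420 at 2775, 3247, 65.0 and 5833, in replicates 0 to 3. Both were low in leaf, at 1.99 to 5.44 and 1.80 to 8.16, and in male flower, at 13.1 to 44.2 and 13.1 to 57.8. Root replicate 2 lay far below the other roots for both and still above every leaf and male library.

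In female flower Zosma192g00430 fell from 141, 117 and 26.0 to 2.67, 5.81 and 4.68, and Zosma192g00420 from 83.7, 108 and 23.4 to 2.67, 5.08 and 2.34. These are small values beside those of root. The log2 fold change of root against leaf was 8.17 for Zosma192g00430 (SE 0.781, adjusted p = 6.15e-07, limma). That of male flower against root was -5.90 for Zosma192g00420 (SE 0.902, adjusted p = 3.53e-05, limma). Reads shared between near-identical copies could be divided between such genes, which was not tested.

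The highest root median of the 100 genes belonged to Zosma52g00130, at 7187, 4348, 45.3 and 5795 scaled fragments in replicates 0 to 3. Early female flower held 337, 253 and 55.9, late female flower 5.33, 7.26 and 9.37, and male flower 0 to 50.2 with a median of 8.16. Leaf was again divided, with 2870 in replicate 1, 777 in replicate 4 and 5.66 to 18.0 in the others. Root exceeded leaf by 4.78 log2 units (SE 1.81), which was not called (adjusted p = 0.0593, limma).

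Male flower and root had similar numbers of calls in each direction, a split that moved with the libraries and the scaling. Male flower exceeded root in 22 of the 98 genes and lay below it in 20, where 25.3% and 25.0% of all genes were called, and the median log2 fold change was -0.28 beside -0.06 for all genes. Without genes of 1 tissue alone the counts were 16 and 17 of 82, against 22.4% and 24.6%. The split was 11 higher and 33 lower with equal totals, where the median of all genes was -0.99, and was 22 and 29 under quantile normalization. Without root replicate 0 it was 21 and 13, and without root replicate 2 it was 15 and 30, with medians of -0.17 and -0.97. With estimated weights the split was 23 and 51, and without the 4 libraries that lay apart 20 and 37, with medians of -1.28 and -1.18. The median was -0.50 without male replicate 0 or 5 and -0.53 without root replicate 3. Again the counts under other settings stand without the share of all genes called there.

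Zosma166g00430 had the largest such excess of male flower over root and the highest male median of the 100. Male flower ranged from 4338 to 24788 scaled fragments with a median of 15888, and root stood at 62.5, 62.0, 18.8 and 66.8. Early female flower held 4849, 3310 and 1267 and late female flower 368, 319 and 256, while leaf had 5004 in replicate 4, 1700 in replicate 1 and 12.0 to 28.3 in the others. The log2 fold change of male flower against root was 8.01 (SE 1.36, adjusted p = 9.86e-05, limma).

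Zosma32g00820 was next. It held 253, 374 and 714 scaled fragments in early and 19.3, 37.8 and 28.1 in late female flower, 92.7 to 773 in male flower with a median of 142, and 2.66, 3.73, 0.855 and 0 in root. Leaf stood at 0 in 3 libraries and reached 21.6 in replicate 4. It was one of the 8 genes that passed the filter through male flower alone, so a difference was built into its passing. Every male library lay above every root and leaf library, and male flower exceeded root by 6.45 log2 units (SE 0.881, adjusted p = 1.11e-05, limma), or 4.22 to 6.90 over 29 alternatives.

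**Figure D5:**
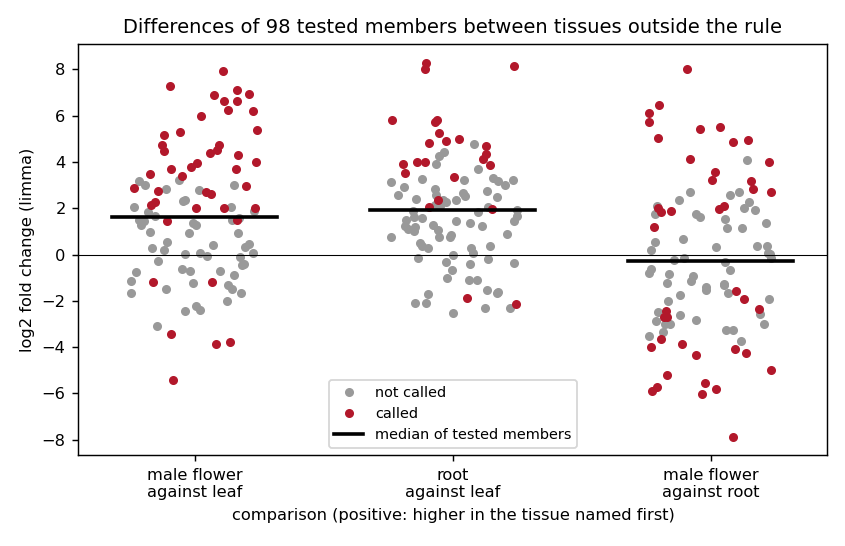
Log2 fold change of the 98 tested genes in the 3 comparisons among leaf, root and male flower (limma; positive values are higher in the tissue named first). Red points are called genes and the bar is the median, at 1.64 for male flower against leaf, 1.95 for root against leaf and -0.28 for male flower against root.

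The positions of the genes could be read only from their identifiers. Read as a scaffold number followed by a position number, the identifiers placed them on 74 scaffolds, with at most 5 on one. In all, 10 genes, in 5 pairs, had another of the 100 within 50 position numbers. The pair Zosma192g00420 and Zosma192g00430, 10 numbers apart and described above, had the largest summed fall of the 5. Among the 100 rising genes 5 had such a neighbour. How many of 100 genes taken from all would have one was not counted. The ratio of scaled fragments to FPKM, which follows gene length, had a median of 0.917 times that of all 17784 genes with an estimate, with quartiles of 0.663 and 1.37. The abundant genes, with an early median of at least 6, had a median of 1.17 and quartiles of 0.782 and 1.69.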

How the data were processed

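The labels' protocols describe oligo(dT) selection and paired-end sequencing. Among the tools, Cuffdiff 2.2.1, Cuffnorm 2.2.1 and TopHat2 2.0.12 appear in the submitters' processing notes. Strand, annotation and genome build were not given in the sources used here. The authors deposited a table called counts, which holds a scaled signal: 98.4% to 99.6% of the non-zero values of a library lay within 0.01 of a whole multiple of a step of 0.524 to 4.52. The step gave the fragments counted, for depth only. They also deposited FPKM.

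The members and all lists were chosen with earlier results of these data known. The log2 values, with a pseudocount of 1, of the 17 leaf, root and male libraries went into one linear model (limma 3.58.1, R 4.3.3; moderated with a trend and robustly), so that no library used by the rule entered. Genes tested reached 10 scaled fragments in 2 or more of these libraries. Groups came from the tissue labels. All replicates differed by more than counting noise, with a chi-square per degree of freedom of 17.7 or more. The fit was tested on simulated normal values with the same spread of a gene in all tissues. These do not copy the uneven leaf and root libraries of the genes described here. Python 3.11.15, numpy 2.4.6, pandas 2.3.3 and matplotlib 3.10.9 made the tables and plots. Named are the 2 genes with the largest fall, for each comparison and direction the 2 called genes with the largest change, without overlap and with a mean of at least 100 in the higher group (1 where only 1 qualified), the highest in each other tissue and 1 pair of neighbours. The genes just inside and outside the limit are given without identifiers. As alternatives, the scaling, filter and pseudocount were changed, FPKM replaced the signal, other fits, library weights and the replicate number as a block were used, and libraries were left out. Lists by product name were not analysed here.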

Additional observations from a re-analysis of the deposited data

Results flagged for a closer look

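Sets of 4 to 7 libraries of a tissue were examined for a value far from the others. For independent sets of normal values chance alone gives about 1 in 20. The sets here share the same libraries, so that rate is only a rough guide. In 6 sets, of the median and the share of the 100 genes in each tissue, there was no such value. The measure looks for a single far value in a set. Leaf replicates 1 and 4 both lay above the other leaf libraries in median and share, and such a pair can go unflagged. Among the named genes, 7 values lay far from the other libraries of their tissue, out of 39 sets. Of these, 6 were in root replicate 2, each time below the other 3 roots by most of the range of the 4 on the log2(value + 1) scale, at 4.03 for Zosma5g00860, 8.12 for Zosma44g00190, 6.66 for Zosma192g00430, 4.31 for Zosma166g00430, 6.04 for Zosma192g00420 and 5.53 for Zosma52g00130. For Zosma44g00190 the value was 278 scaled fragments against 410 to 437 in the other roots, which lie close together. In the same library 24 of the 100 genes were at 0, against 2 to 7 in the other roots. The remaining value was that of Zosma22g01000 in leaf replicate 1, at 1.96 or 5 fragments, where the other 5 leaf libraries were at 0. What sets these libraries apart was not tested.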

How the results depend on the processing

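The number of genes called moved by more than 1.5 times under few settings. With estimated library weights it was 74 for male flower against leaf, 83 for root against leaf and 74 for male flower against root, and without leaf replicates 1 and 4, root replicate 2 and male replicate 5 it was 69 and 68 for the first 2. The fit of root and leaf alone called 15. Leaving out single libraries gave 39 to 56, 13 to 39 and 34 to 50 in the same order. With the replicate number as a replicate block the counts were 45, 19 and 34. Calls over all genes under these settings are not given here, so the moves may not be particular to the genes described. The labels do not say that a number marks a shared plant or day, and the deviations of same-numbered libraries correlated at -0.41 to 0.52, over 0.1 in 4 of 14 pairs, so the numbers were not taken as pairs. With late replicate 3 counted as early, 18 genes met the rule and 12 were shared. Quantile normalization put 6 genes at the early level in leaf, and equal totals put 10 at that level in male flower. Leaving out single libraries gave 145 to 215 genes that met the rule. The cause of these moves was not tested. Apart from Zosma15g00820 in root against leaf, the named calls held under all 29 alternatives run for each. The number of libraries in a group and the spread between them limit the precision.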
